A study of Mus musculus with 18 samples.

Results

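Papillomas of mice that lack the RNA-binding protein ZFP36 in keratinocytes were compared with the nontumoral skin beside them, as 3 tumor libraries against 3 skin libraries. These 6 libraries were taken from a series of 18, of which 2 held identical values and were counted as 1, which left 17. Both groups carried the same deletion, in which Cre recombinase under the human keratin 14 promoter removed loxP-flanked Zfp36 (Zfp36 ΔK14 in the labels, called ΔEP in the study), on a C57BL/6 background. Both groups also received the same carcinogenesis protocol from 8 weeks of age. It consisted of 2 applications of 200 nmol DMBA to the back skin, followed by 6.5 nmol TPA in 2 doses a week. Neither the deletion nor these doses differ between the groups compared. The study gives the weeks of TPA as a range, and the weeks behind each library were not known here. DMBA is a mutagen and TPA a phorbol ester that drives inflammation and growth of initiated keratinocytes. Mock skin without DMBA and TPA, and the same stages in fl/fl mice with intact Zfp36, were used for reference.

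The study's methods describe the cells as sorted on EpCAM and against CD45, CD140a and CD31, markers of leukocytes, fibroblasts and endothelium. The labels name whole skin as the source of every library, call the treated skin libraries treated tumoral keratinocytes, and mention a separate extraction of whole treated skin, so the material of the skin libraries was read from the methods. K14-Cre is active in basal epidermis, hair follicles and sebaceous glands alike. The labels do not say whether the 3 libraries of a group came from different animals, and p-values below measure only the spread between these libraries.

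ZFP36, also called tristetraprolin, binds AU-rich elements in the 3′ untranslated regions (UTRs) of short-lived mRNAs, among them those of cytokines and growth factors, and recruits the enzymes that remove the poly(A) tail. Papillomas of the DMBA and TPA protocol are outgrowths of keratinocytes in which signaling from RAS and the EGF receptor reaches AP-1. This family of FOS and JUN dimers binds sequences such as TGACTCA and TGAGTCA in promoters, searched here as TGANTCA. Skin between tumors keeps its hair follicles, which hold stem cells, pigment cells and a lineage of keratinocytes that builds the hair and its inner root sheath under Wnt and Hedgehog signals.

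The matrix metalloproteinase genes Mmp13, Mmp1b, Mmp3 and Mmp10 each held an AP-1 motif in the window from 250 bases before to 50 bases after the transcription start. Their motifs are shown because these collagenases and stromelysins stood at no more than 2.41 CPM (a library-scaled read count) in any skin library and were higher in every tumor. Each line gives 30 bases of the RefSeq promoter window (GRCm38.p6), 5′ to 3′ on the gene's own strand, with TGANTCA in capitals. The first motif base lay at -35 for Mmp13, -93 for Mmp1b, -46 for Mmp3 and -63 for Mmp10 relative to the start.
Mmp13 (chr9:7272468-7272497, plus strand): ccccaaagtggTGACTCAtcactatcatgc
Mmp1b (chr9:7388101-7388130, minus strand): gttacaaagccTGAGTCAtatagcctctgg
Mmp3 (chr9:7445765-7445794, plus strand): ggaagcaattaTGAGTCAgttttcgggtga
Mmp10 (chr9:7502268-7502297, plus strand): tagcacccatgTGAGTCAtgcttagtgacc

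The second set of sequences came from 3′ UTRs that hold TTATTTATT, the nonamer of the kind ZFP36 binds, in growth factor, chemokine, prostaglandin and glycolysis genes whose values are given below. UTRs were taken from the GENCODE annotation of GRCm38, and the nonamer is in capitals. It began at base 213 of the UTR in Areg, 3441 in Ereg, 429 in Cxcl3, 18 in Ptgs2 and 2434 in Pfkfb3. The letters are a description of the transcript and no measure of binding.
Areg (chr5:91148382-91148411, plus strand): tatttaagtgTTATTTATTttatagctcat
Ereg (chr5:91093576-91093605, plus strand): ttgtcagtttTTATTTATTttttgttagga
Cxcl3 (chr5:90787867-90787896, plus strand): ttatcagttgTTATTTATTgaaatggtctt
Ptgs2 (chr1:150105790-150105819, plus strand): ctgaccatatTTATTTATTtatgtgaagaa
Pfkfb3 (chr2:11472043-11472072, minus strand): gatgtgctatTTATTTATTtaatatgtata

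Total counts ran from 4786594 to 6407008 in the skin libraries and from 5412205 to 7069660 in the tumors, with 25516 to 28145 and 23445 to 25104 genes detected. Ribosomal RNA took 8% to 10.1% of counts in skin and 8.25% to 9.96% in tumors. The scaling factors fitted by TMM, which correct for the share of reads taken by abundant genes, were 1.127 to 1.197 in skin and 0.827 to 0.876 in tumors and so did not overlap. Levels below are CPM on these scaled library sizes, that is, each gene's reads relative to the library's total, unless stated otherwise.

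Zfp36 (chr7:28376784-28380253) was measured first as a check of the labels. It stood at 26.2, 30.6 and 14.4 CPM in skin and at 17.6, 11.8 and 9.1 CPM in tumors. The groups overlapped, and the log2 difference of -0.90 (SE 0.34, adjusted p = 0.0676, edgeR's quasi-likelihood test with Benjamini-Hochberg adjustment) was not called. It was called lower without TMM scaling, without skin replicate 3 and without tumor replicate 1. On 1 scale for the whole series, Zfp36 ran from 10 to 37.7 CPM in all ΔK14 libraries and from 152 to 698 CPM in all fl/fl libraries, with no overlap between genotypes. The related genes Zfp36l1 and Zfp36l2, which code for proteins with the same type of zinc fingers, differed by -0.01 (SE 0.17, adjusted p = 0.959) and 0.32 (SE 0.25, adjusted p = 0.344) and were not called. Of 34 genes for mRNA decay and AU-rich element binders, 2 rose and 1 fell (Mapkapk2, Igf2bp2 and Igf2bp3), and the median difference was 0.00. Without TMM scaling 6 fell and Mapkapk2 was not called, and the calls of Igf2bp2 and Igf2bp3 were lost without tumor replicate 3, that of Igf2bp2 also without skin replicate 2.

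Markers of keratinocytes checked the labelled cell type. The summed level of 8 keratinocyte identity genes was 5906 to 17777 CPM in skin and 28003 to 28886 CPM in tumors, and Krt5, Krt14, Epcam and Sfn were the 4 called higher, Epcam not without tumor replicate 2, tumor replicate 3 or TMM scaling. Ptprc, which codes for CD45, stayed between 0.268 and 1.33 CPM in all 6 libraries, and the 17 leukocyte genes summed to 28.7 to 244 CPM in skin and 77.8 to 120 CPM in tumors, with 0 of 6 tested genes called. The 8 fibroblast markers summed to 411 to 939 CPM in skin and 28.2 to 356 CPM in tumors. Most of that difference was Dcn, which codes for the proteoglycan decorin and was the 1 fibroblast marker of 7 tested that fell, from 826, 237 and 332 CPM to 2.75, 2 and 0.172 CPM. Col1a1, the main collagen gene of fibroblasts, stood at 57.7, 266 and 38.3 CPM in skin and at 134, 173 and 15.4 CPM in tumors and was not called. Pdgfra, which codes for CD140a, ran from 1.76 to 6.84 CPM in skin and from 1.89 to 6.15 CPM in tumors.

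Melanocyte markers moved with the comparison. The 8 genes summed to 456, 118 and 87.4 CPM in skin and to 39, 30.6 and 16.7 CPM in tumors, and 5 of 6 tested genes fell. Dct, an enzyme of melanin synthesis, fell from 119, 18.8 and 18.3 CPM to 8.47, 5.16 and 1.03 CPM, and Mitf, the melanocyte transcription factor, from 9.32, 10.1 and 11.1 CPM to 1.69, 3.66 and 1.03 CPM. The call of Dct was lost without tumor replicate 2 or 3. The part of pigment cells in the losses of follicle genes below was not tested. Schwann cell markers summed to 13.2 to 30.1 CPM in skin and 52.1 to 73.5 CPM in tumors through Mbp, the gene of myelin basic protein, whose call was lost without skin replicate 2. Endothelial markers ran from 8.5 to 14.7 CPM in skin and from 16.5 to 29.8 CPM in tumors, mostly through Pecam1, which codes for CD31. Of 7 genes 2 were tested and 1 was called, Pecam1, higher except without tumor replicate 2, tumor replicate 3 or TMM scaling. Cdh5 overlapped between the groups, while Tie1 lay higher and Tek lower in tumors, each at no more than 2.49 CPM. Langerhans cell markers lay at 42.4 to 279 CPM and 187 to 238 CPM, and their defining gene Cd207 was at 0 in 5 of the 6 libraries, with 1 count in the other. Of 5 tested genes of that list 1 was called, Mfge8, which rose from 29.2, 39.7 and 13.5 CPM to 119, 99.6 and 116 CPM (2.02, SE 0.34, adjusted p = 0.00317). Neutrophil, muscle, Merkel cell, adipocyte and erythrocyte markers each summed to at most 14.8 CPM in any library, and neutrophil Retnlg was at 0 in all of them. In bulk libraries, fewer cells of a type and less RNA per cell cannot be told apart, and this holds for every loss described below.

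**Figure D1:**
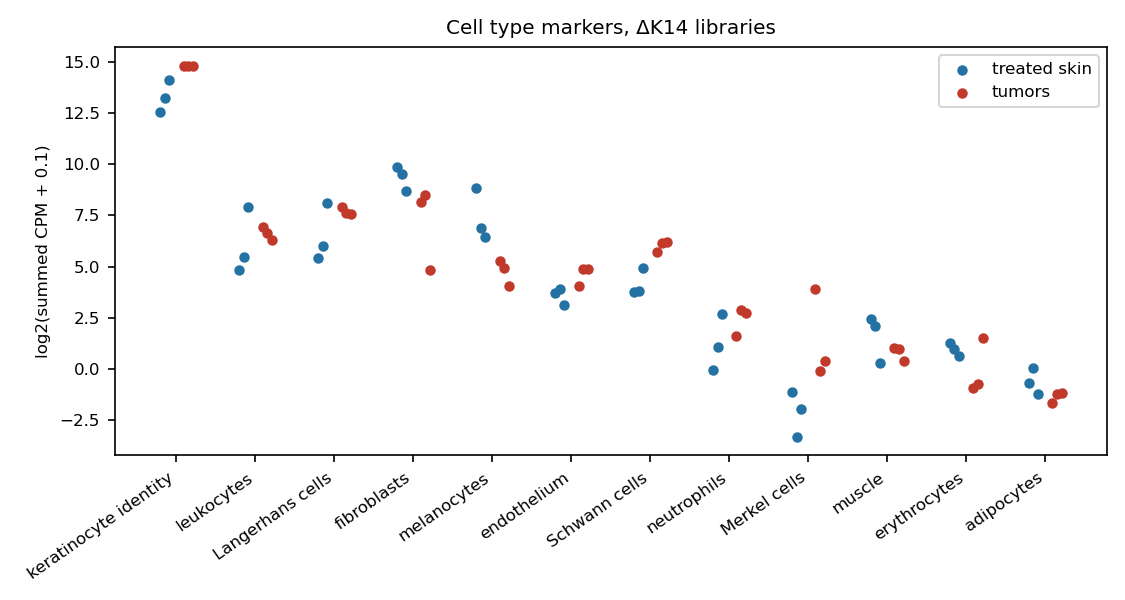
Summed levels of cell type markers in ΔK14 libraries. The vertical axis is log2(summed CPM + 0.1), the horizontal axis the marker list, and each point 1 library of treated skin (blue) or tumor (red). Keratinocyte genes lie higher in every tumor than in any skin library, melanocyte genes lower in every tumor, and leukocyte markers overlap between the groups.

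Of 52636 genes in the table, 15289 had enough counts to be tested and 3973 (26%) were called, with an adjusted p under 0.05 and more than a 2-fold difference. Higher levels in tumors were found for 1608 genes (10.5%) and lower levels for 2365 genes (15.5%). These shares are the background for the counts of each gene list below. Differences over 16-fold were found for 123 genes that rose and 184 that fell. In 3914 of the called genes the 3 tumors lay wholly above or below the 3 skin libraries, as did 7964 of all tested genes. Higher calls made up 40.5% of all calls with TMM scaling and 18.6% when library totals alone were used, which moved the median difference of all tested genes from -0.03 to -0.47. Of the library totals' calls, 3295 were shared with the 3973 genes above, and no called gene changed sign. Without tumor replicate 3, the genes called lower numbered 1554.

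**Figure D2:**
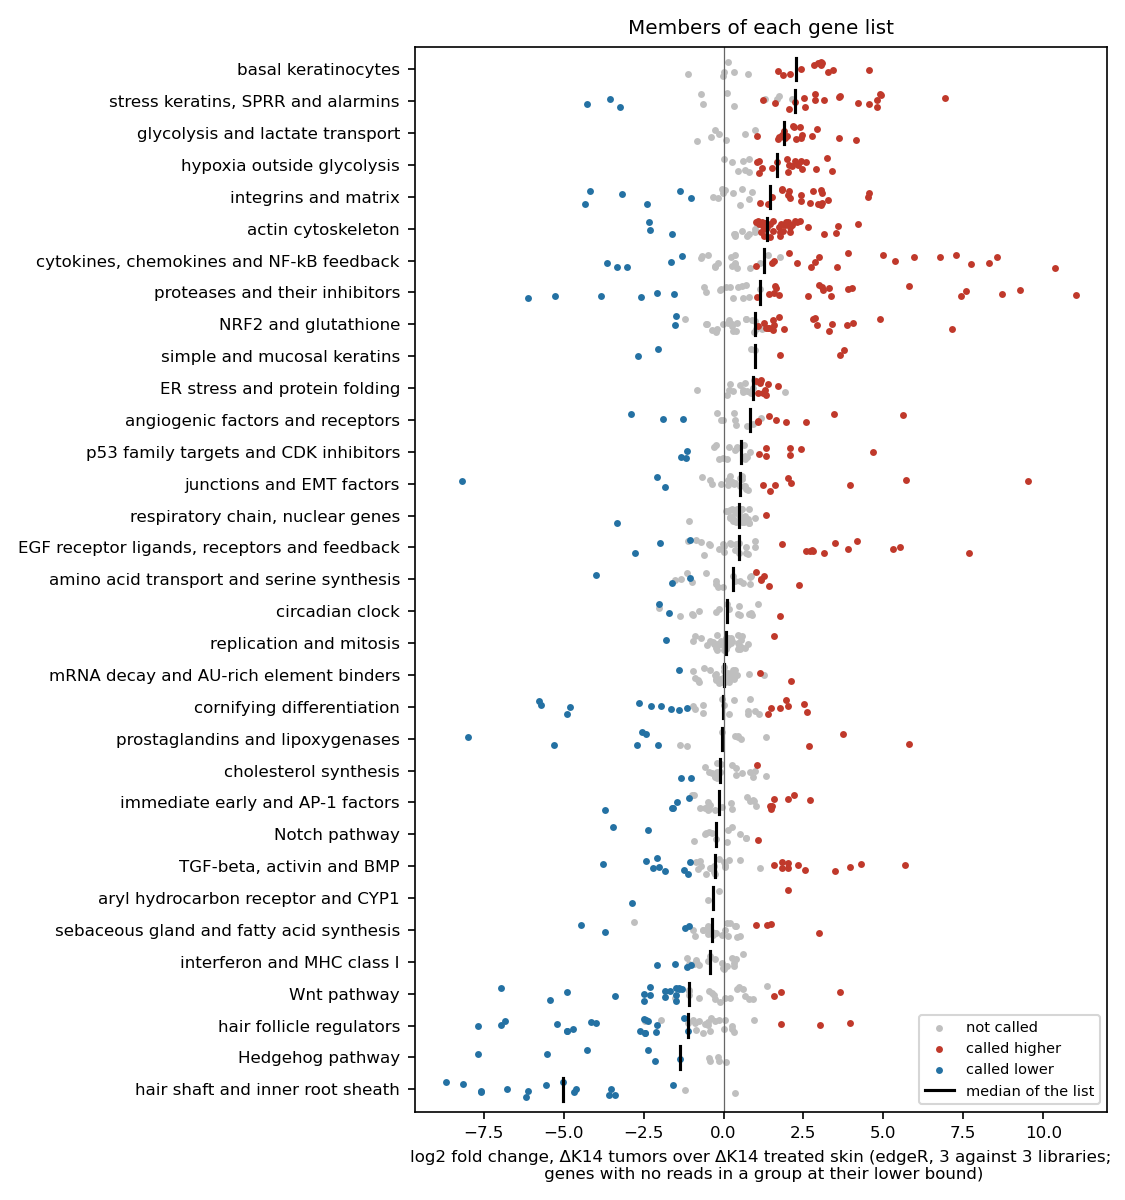
Log2 fold change of every tested member of 33 gene lists, ΔK14 tumors over ΔK14 treated skin. Each point is 1 gene, colored by its call, and the black bar is the median of the list. Basal keratinocyte, stress keratin, glycolysis and hypoxia genes lie to the right of 0, and genes of the hair shaft, the Hedgehog pathway and the Wnt pathway to the left. Genes without a read in 1 group are drawn at their lower bound.

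Ligands of the EGF receptor were among the clearest gains. Of 36 tested genes for ligands, receptors and feedback, 12 rose and 3 fell (5 without skin replicate 1 and 6 without TMM scaling), with a median difference of 0.49 against -0.03 over all genes. Ereg, which codes for epiregulin, stood at 1.76, 7.78 and 1.6 CPM in skin and at 319, 1058 and 976 CPM in tumors, a log2 rise of 7.67 (SE 0.75, adjusted p = 0.000414). Areg, the amphiregulin gene, rose from 8.97, 20.6 and 20.7 CPM to 383, 903 and 1036 CPM. Every tumor exceeded every skin library in both genes. Epgn (epigen) rose by 4.19 (SE 0.35, adjusted p = 0.000214) and Hbegf, the gene of heparin-binding EGF, by 2.76 (SE 0.35, adjusted p = 0.00104). Tgfa rose by 3.49, also without overlap. The receptor gene Egfr was not called, at 310, 367 and 351 CPM in skin and 246, 357 and 324 CPM in tumors (-0.15, SE 0.19, adjusted p = 0.572). The 3 losses were Nrg4, the receptor inhibitor Lrig3 (-2.76, SE 0.30) and the feedback inhibitor Spry1 (-2.0, SE 0.33), while the related Spry2 and the phosphatase genes Dusp4 and Dusp5 rose.

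Downstream of these ligands, AP-1 and immediate early factors moved in both directions. Of 30 tested, 7 rose and 5 fell, with a median of -0.15. That is 23.3% higher and 16.7% lower, beside 10.5% and 15.5% of all tested genes. Fosl1, which codes for the FOS family member FRA-1, rose from 91.1, 82.2 and 66.7 CPM to 261, 385 and 467 CPM. Egr2, a zinc finger factor, fell from 118, 116 and 151 CPM to 9.75, 8.48 and 11 CPM, a difference of -3.72 (SE 0.21, adjusted p = 0.000165). Its relative Egr1 fell from 770, 672 and 1137 CPM to 250, 309 and 306 CPM. Fos was not called, with 1009, 877 and 1765 CPM in skin against 846, 904 and 857 CPM in tumors. Without TMM scaling the falls numbered 9, and Fos and Egr1 belong to the class of genes induced within minutes by growth factors.

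Proteases gave some of the largest ratios. Of 39 tested proteases and inhibitors, 20 rose and 6 fell, with a median of 1.15. That is 51.3% higher and 15.4% lower, beside 10.5% and 15.5% of all tested genes. Mmp13, a collagenase, stood at 0.879, 2.41 and 0.16 CPM in skin and at 300, 1057 and 907 CPM in tumors, a rise of 9.26 (SE 0.78, adjusted p = 0.000226). The stromelysin gene Mmp3 rose from 0.176, 1.74 and 0.641 CPM to 94.7, 383 and 693 CPM. Mmp10, the second stromelysin, had 3 counts over the skin libraries and 6308 over the tumors, a ratio of 2461 (95% interval 842 to 11937, conditional on the total and covering counting error only). The collagenase Mmp1b had no count in skin and 7.2, 25.6 and 46.2 CPM in tumors, at least 56-fold higher when skin is set to 3 counts per library. For these 4 genes, whose promoter motifs are printed above, tumor replicate 1 was the lowest tumor. It still exceeded all skin libraries, and separate groups were a condition of choosing these genes.

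Mmp9, a gelatinase, rose from 1.23, 1.07 and 0.641 CPM to 58.3, 99.3 and 360 CPM. The urokinase gene Plau rose by 3.00 (SE 0.44, adjusted p = 0.00189), together with its receptor Plaur. Some inhibitors of proteases fell. Timp3, a matrix-bound inhibitor of metalloproteinases, fell from 346, 434 and 165 CPM to 35.2, 13.5 and 17.7 CPM. Cst6, which codes for the epidermal cystatin M/E, fell from 114, 260 and 181 CPM to 4.03, 5.32 and 4.98 CPM, a difference of -5.26 (SE 0.35, adjusted p = 0.000165). The groups did not overlap for any of these genes, which for Timp3 and Cst6 was a condition of their choice.

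Cytokine genes rose more often than they fell, and which cells held their RNA was not tested. No leukocyte marker was called, but only 6 of 17 leukocyte genes and 1 of 7 neutrophil genes had enough counts to be tested. Of 40 tested cytokine, chemokine and NF-kB feedback genes, 19 rose and 5 fell (3 to 5 with 1 library left out), with a median of 1.26. Csf3, the gene of the neutrophil growth factor G-CSF, had 0.352, 0.268 and 0.16 CPM in skin and 145, 307 and 667 CPM in tumors, from 5 and 6414 counts, a ratio of 1501 (643 to 4626). Il24, an IL-10 family cytokine of keratinocytes, rose from 0.528, 0.804 and 1.76 CPM to 86, 470 and 634 CPM. The neutrophil chemokine Cxcl1 rose from 33.8, 36.1 and 13.1 CPM to 451, 1010 and 1183 CPM, by 4.99 (SE 0.51, adjusted p = 0.000444). Cxcl3 had 4 counts in skin and 1207 in tumors, a ratio of 353 (138 to 1298), and Cxcl5 had 3 and 615, a ratio of 240 (81.7 to 1167). Neither gene overlapped between groups, which was a condition of their choice.

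Tnf, a known ZFP36 target, rose from 40.8, 22.7 and 13.5 CPM to 52.1, 118 and 206 CPM, by 2.29 (SE 0.53, adjusted p = 0.0108). Lif, an IL-6 family cytokine, rose by 2.99 (SE 0.48, adjusted p = 0.00248). The 5 losses included Cxcl12, which fell from 36.8, 82.6 and 12 CPM to 3.6, 4.32 and 2.57 CPM, and Ccl27a, a skin chemokine for T cells, which fell from 9.15, 25.6 and 29 CPM to 1.06, 2.33 and 2.75 CPM. Interferon and MHC class I genes gave 0 rises and 4 falls in 23 tested genes, among them Stat2 and Nlrc5, with a median of -0.41. That is 17.4% lower, near the 15.5% of all tested genes. The falls numbered 2 to 7 when single libraries were left out, with 7 without skin replicate 1 and 2 without skin replicate 2, skin replicate 3 or tumor replicate 1, and 8 without TMM scaling. B2m, the light chain of MHC class I, was not called (0.10, SE 0.31, adjusted p = 0.819).

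Genes of prostaglandins and lipoxygenases moved in both directions, with 3 rises and 6 falls in 17 tested members of the list. Ptgs2, which codes for cyclooxygenase-2, stood at 31.7, 65.6 and 55 CPM in skin and at 1658, 3296 and 3611 CPM in tumors, a rise of 5.81 (SE 0.43, adjusted p = 0.000173). Ptges, the prostaglandin E synthase gene, rose from 7.21, 18.1 and 44.4 CPM to 228, 288 and 409 CPM. Ptger4, a receptor for prostaglandin E2, fell from 96.9, 67.4 and 47.6 CPM to 14.8, 12.8 and 11.5 CPM. Alox12e, the epidermal 12-lipoxygenase gene, fell from 47.8, 188 and 152 CPM to 1.27, 0.166 and 0.172 CPM, by 7.98 on the log2 scale. The lipoxygenase genes Alox12 and Alox8 fell by 2.55 and 2.04, with the call of Alox8 lost at -1.52, -1.83 and -1.83 without skin replicate 1, tumor replicate 1 or tumor replicate 2, while Aloxe3, a lipoxygenase gene of the list of cornifying differentiation, was not called (0.03, SE 0.58, adjusted p = 0.970).

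**Figure D3:**
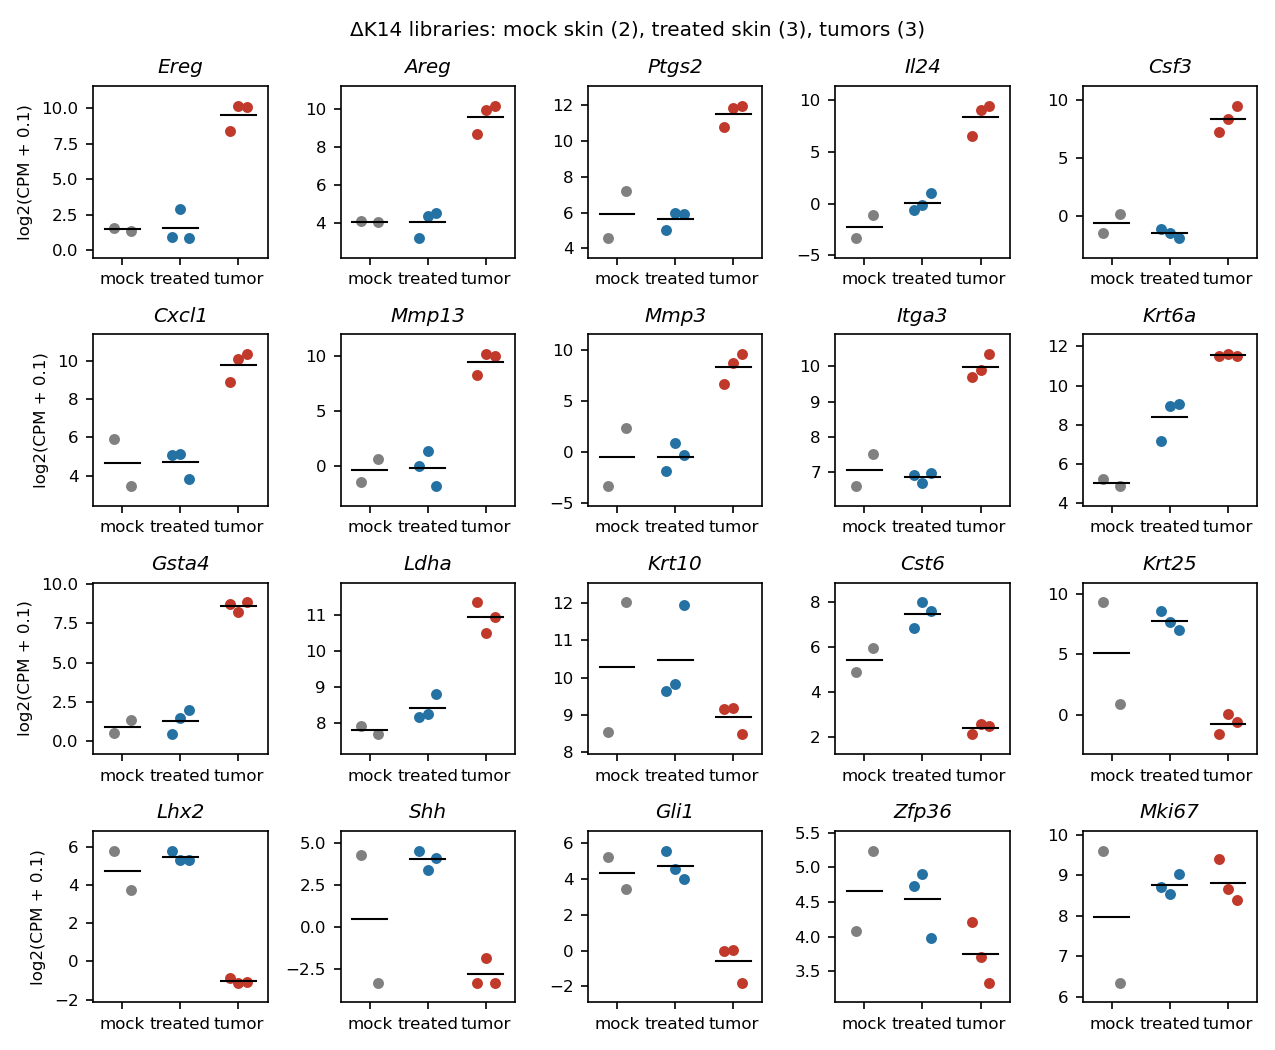
Levels of 20 genes in ΔK14 mock skin, treated skin and tumors. The vertical axis is log2(CPM + 0.1) on library sizes scaled over the whole series, each point is 1 library (2, 3 and 3 per stage) and the bar is the mean on the log scale. Ereg, Areg, Ptgs2, Il24, Csf3 and Mmp13 are higher in every tumor than in any mock or treated skin library, and Krt25, Lhx2, Shh and Gli1 are lower in every tumor than in any treated skin library.

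Levels in mock skin were compared for some of these gains. On the scale of the whole series, Ereg stood at 2.91 and 2.46 CPM in the 2 mock ΔK14 libraries, at 1.78 to 7.59 CPM in treated skin and at 336 to 1155 CPM in tumors. Il24 had 0 and 0.352 CPM in mock skin, Mmp13 0.264 and 1.41 CPM and Csf3 0.264 and 1.06 CPM, each beside at most 2.36 CPM in treated skin. S100a8, which codes for a subunit of calprotectin, stood at 1.06 and 0 CPM in mock skin, at 32.8, 76 and 256 CPM in treated skin and at 566 to 820 CPM in tumors. Its rise from treated skin to tumors (2.56, SE 0.61) was called, but not without skin replicate 2. Some other genes that rose reached tumor levels in 1 of the mock libraries. Nr1d1, a clock gene, stood at 21.4 and 296 CPM in mock skin and at 105 to 157 CPM in tumors. Mbp stood at 7.13 and 107 CPM in mock skin and at 54.4 to 80.6 CPM in tumors. Wnt10a stood at 9.25 and 52.1 CPM in mock skin and at 50.8 to 66.8 CPM in tumors. Mock and treated skin were not tested against each other here.

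Basal keratinocyte genes rose as a group. Of 18 tested, 12 rose and 0 fell, with a median of 2.25. Krt14, the partner of keratin 5 in basal cells, stood at 955, 2561 and 5060 CPM in skin and at 10403, 10381 and 10435 CPM in tumors (1.86, SE 0.51, adjusted p = 0.0210), and the call was lost without skin replicate 2, tumor replicate 1 or tumor replicate 3. Krt5 rose by 1.71 (SE 0.39, adjusted p = 0.0105). Skin replicate 1 had the lowest and skin replicate 3 the highest value of both keratins. Trp63, the transcription factor of the basal layer, was not called, at 473, 521 and 681 CPM in skin and 654, 580 and 433 CPM in tumors.

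Laminin and integrin genes were among the 12 of 18 tested basal genes that rose. The laminin chain genes Lama3 and Lamb3 rose by 3.08 and 3.26. Itga3 and Itgb1, the chains of a laminin receptor, rose from 120, 108 and 117 CPM to 792, 871 and 1178 CPM and from 188, 206 and 200 CPM to 1222, 1643 and 1792 CPM. Itga5, a chain of the fibronectin receptor, rose from 10.7, 14.2 and 8.18 CPM to 89.6, 248 and 430 CPM. Of 36 tested integrin and matrix genes, 20 rose and 6 fell, with a median of 1.46. That is 55.6% higher and 16.7% lower, beside 10.5% and 15.5% of all tested genes. The falls included Fras1, from 43.1, 63.5 and 54.5 CPM to 2.12, 3.99 and 1.72 CPM, and Frem2, whose products form a complex in the basement membrane of developing skin.

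The actin cytoskeleton list had the most calls, with 37 rises and 3 falls among 49 tested genes and a median of 1.35. Without TMM scaling, 23 of the rises were called. Cotl1, which codes for an F-actin binding protein, rose from 22.9, 22.1 and 29.2 CPM to 262, 287 and 345 CPM (3.59, SE 0.21, adjusted p = 0.000165). Fscn1, the gene of the bundling protein fascin, rose from 52.6, 31.4 and 26 CPM to 357, 351 and 549 CPM. Flna, an actin crosslinker, rose by 1.77 (SE 0.21, adjusted p = 0.000845). The falls were the contractile genes Tagln (-2.33, SE 0.36), Myh10 (-2.31, SE 0.45) and Myl9. Among 30 tested junction and mesenchymal transition genes, 8 rose and 3 fell. Dsc2, a desmosomal cadherin, rose from 4.75, 10.3 and 9.46 CPM to 129, 135 and 119 CPM, while the tight junction gene Cldn1 fell from 165, 276 and 356 CPM to 59.3, 109 and 57 CPM.

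Hmga2, which codes for an architectural chromatin protein of embryonic tissue, had 6 counts in skin and 4176 in tumors, at 92.4, 284 and 349 CPM, a ratio of 815 (374 to 2221). Cdh6, the gene of kidney cadherin, had 46.1, 23.6 and 13.5 CPM in skin and no count in tumors, at least 50.4-fold lower at 3 counts per library. Cdh1 (E-cadherin), Vim (vimentin) and Snai2 were not called, with differences of 0.66, 0.59 and 0.59.

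Differentiation split by type. Stress keratin, small proline-rich and alarmin genes gave 18 rises and 3 falls in 29 tested, with a median of 2.25. Krt6a, induced in wounded and hyperplastic epidermis, rose from 145, 505 and 485 CPM to 2792, 2851 and 2650 CPM (2.87, SE 0.44, adjusted p = 0.00207). Krt16 rose from 95.2, 355 and 532 CPM to 1291, 2557 and 1733 CPM. Sprr1b, a precursor of the cornified envelope, rose from 5.63, 10.5 and 20.8 CPM to 131, 171 and 148 CPM, and Sprr2e had 3 counts in skin and 366 in tumors, a ratio of 143 (48.5 to 696). The calls of Krt6a, Krt16, Sprr1b and Sprr2e held with each library left out in turn. The Sprr2 genes and Krt6a with Krt6b are close copies whose reads the counting could split, so single members are uncertain. The falls were Sprr4, with 5.1, 8.45 and 2.08 CPM in skin and no count in tumors, Chil1, a chitinase-like gene, which fell by 4.28, and Klk6, a kallikrein protease gene, which fell by 3.55. On the scale of the whole series Chil1 stood at 5.28 and 1.41 CPM in mock ΔK14 skin, 29.4, 77.1 and 145 CPM in treated skin and 7.8, 2.18 and 3.59 CPM in tumors. The study named Chil1 among genes that differed between genotypes in treated skin and reported Klk6 as increased there without Zfp36.

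Genes of the ordinary cornifying program moved in both directions, with 7 rises and 10 falls in 30 tested and a median of -0.01. Without tumor replicate 3 the falls numbered 6. Krt10, the keratin of the spinous layer, stood at 789, 938 and 3646 CPM in skin and at 542, 531 and 325 CPM in tumors (-1.94, SE 0.56, adjusted p = 0.0262), and the call was lost with DESeq2, with the replicate number as a block, without skin replicate 3 and without any single tumor. Its partner Krt1 was not called, at 848, 1320 and 5320 CPM against 1285, 1765 and 987 CPM. The kallikrein genes Klk7 and Klk5, proteases that shed corneocytes, fell from 41.3, 165 and 101 CPM to 1.48, 3.33 and 5.15 CPM and from 155 to 2 counts, the second a ratio of 66.2 (18 to 552). Prdm1, which codes for a repressor of transcription, rose from 29.7, 32.6 and 24.1 CPM to 126, 199 and 174 CPM. Involucrin (Ivl) was not called (-0.04, SE 0.37).

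Among 7 tested members of the list of simple and mucosal keratins, 3 rose and 2 fell, and 1 rose without skin replicate 2. The falls were Krt80 and Krt78. Krt8 rose from 0.704, 1.07 and 1.44 CPM to 2.33, 4.99 and 3.78 CPM. The calls of Krt8 and Krt78 were lost without skin replicate 2, tumor replicate 2 or tumor replicate 3. Krt18 rose from 1.93, 2.55 and 0.321 CPM to 18.9, 31.6 and 16.7 CPM. Krt13, a keratin of stratified mucosa, stood at 0.352, 1.88 and 2.24 CPM in skin and at 46.6, 5.32 and 5.84 CPM in tumors, and its log2 rise of 3.63 (SE 0.97, adjusted p = 0.0188) was 1.91 without tumor replicate 1. Krt13 was not called without skin replicate 2 or with the replicate number as a block.

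Glycolytic genes rose and none of them fell. Of 25 tested genes of glycolysis and lactate transport, 18 rose and 0 fell, with a median of 1.89. Slc2a1, which codes for the glucose transporter GLUT1, rose from 45.4, 89.3 and 242 CPM to 1029, 823 and 1029 CPM (2.93, SE 0.54, adjusted p = 0.00422). Hk2, the first enzyme of the pathway, rose from 96.7, 111 and 128 CPM to 558, 620 and 606 CPM. Ldha, which makes lactate, rose from 279, 310 and 413 CPM to 2472, 1325 and 1773 CPM. The lactate exporter gene Slc16a3 rose by 4.14. Pfkfb3, the kinase that sets the level of the glycolytic activator fructose-2,6-bisphosphate, rose from 9.5, 12.7 and 13.1 CPM to 170, 140 and 128 CPM, by 3.62 (SE 0.22, adjusted p = 0.000165).

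Other genes of the hypoxia response gave 18 rises and 0 falls in 25 tested, with a median of 1.68. Ero1l, an oxidase of the endoplasmic reticulum, rose from 29.4, 42.4 and 41.2 CPM to 353, 317 and 405 CPM. Egln3, a prolyl hydroxylase that senses oxygen, rose from 36.8, 44.1 and 58.2 CPM to 236, 144 and 177 CPM. Ndrg1 rose from 105, 165 and 103 CPM to 980, 1341 and 1628 CPM. The model gene Gm17035 (chr15:66929607-66931107) lies within Ndrg1 (chr15:66929318-66969640), and since the strand used in counting is not given for these libraries, its rise of 4.38 cannot be told apart from that of Ndrg1. Vegfa, the endothelial growth factor gene, rose from 29.4, 48.7 and 44.4 CPM to 344, 461 and 540 CPM, and the related Pgf from 1.23, 0.67 and 0.321 CPM to 19.9, 37.1 and 52.5 CPM. Of 20 tested angiogenic genes 8 rose and 3 fell, and Fgf2 fell by 2.89 (SE 0.40, adjusted p = 0.00145).

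Nuclear genes of the respiratory chain gave 1 rise and 1 fall in 37 tested, with a median of 0.50. Without TMM scaling, which lowered the median of all genes from -0.03 to -0.47, 0 rose and 2 fell. Ndufa4, the member that rose (1.32, SE 0.18, adjusted p = 0.00140), lost its call without TMM scaling, and Ppargc1a, a coactivator of mitochondrial genes, was the member that fell, from 64 to 5 counts (ratio 10.9, 4.45 to 34.8).

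Enzymes of the NRF2 program, which protects against oxidants and electrophiles, gave 19 rises and 2 falls in 42 tested, with a median of 1.0. Gsta4, a glutathione transferase that conjugates products of lipid peroxidation, rose from 1.23, 2.68 and 3.53 CPM to 400, 268 and 414 CPM (7.16, SE 0.38, adjusted p = 0.000165). The glutathione peroxidase gene Gpx2 rose from 1.41, 6.57 and 3.85 CPM to 107, 103 and 149 CPM. Nqo1, the quinone reductase gene, rose from 3.34, 9.92 and 15.6 CPM to 60, 60.2 and 92 CPM. Gsto1 rose from 55.8, 63.8 and 114 CPM to 1201, 957 and 1254 CPM. The falls were Gstm5 and Aldh3b2, the second of which lost its call without tumor replicate 1 or tumor replicate 3. Glutathione transferase genes are a family of close copies, and reads could be split between them.

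Ligands and antagonists of the TGF-beta family changed in both directions. Of 37 tested genes 11 rose and 9 fell, with a median of -0.27. Inhba, the subunit of activin A, rose from 5.45, 9.38 and 2.24 CPM to 164, 360 and 368 CPM, and Fst, which codes for the activin antagonist follistatin, rose from 58.9, 67.3 and 74.1 CPM to 788, 1063 and 1276 CPM. Ltbp1, which stores latent TGF-beta in the matrix, rose from 5.63, 11.1 and 13.5 CPM to 187, 180 and 233 CPM. Bmp4 fell from 35, 18.1 and 10.7 CPM to 2.33, 4.66 and 6.52 CPM, and Bambi, a decoy receptor, from 87.8, 41 and 15.7 CPM to 4.24, 2.99 and 3.43 CPM. No group overlapped in these 5 genes, which for Fst, Ltbp1 and Bambi was a condition of their choice.

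Few proliferation genes were called. Of 38 tested genes for replication and mitosis, 1 rose and 1 fell (4 fell without TMM scaling), and the median was 0.09. Mki67, a marker of cycling cells, stood at 416, 382 and 484 CPM in skin and at 639, 368 and 302 CPM in tumors (0.03, SE 0.28, adjusted p = 0.940), and Mcm2, a helicase subunit of replication, differed by 0.13 (SE 0.31, adjusted p = 0.768). The 2 called genes were cyclins of the same step, with Ccnd1 at 115, 95.3 and 85.9 CPM in skin and 324, 286 and 270 CPM in tumors, and Ccnd2 at 868, 561 and 469 CPM against 142, 202 and 206 CPM. Targets of p53 and inhibitors of cyclin-dependent kinases gave 7 rises and 3 falls in 24 tested. Cdkn1a, which codes for p21, rose from 66.1, 77.2 and 94.6 CPM to 208, 351 and 440 CPM, and Cdkn2a, the locus of p16 and p19ARF, from 1.41, 0.804 and 0.321 CPM to 11.4, 21.8 and 32.4 CPM. Ccng1 rose by 2.42 (SE 0.19, adjusted p = 0.000181), and Cdkn1b, the p27 gene, fell by 1.13 (SE 0.20, adjusted p = 0.00374), a call lost without skin replicate 1 or tumor replicate 2.

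The deepest losses were in the hair. Of 17 tested genes of the hair shaft and inner root sheath, 0 rose and 15 fell, and the median was -5.56, or -5.01 with the gene that had no tumor count set to its bound. Krt25, a keratin of the inner root sheath, fell from 373, 202 and 118 CPM to 0.212, 0.832 and 0.515 CPM, by 8.68 (SE 0.61, adjusted p = 0.000173). Krt71 and Krt28, of the same sheath, fell from 207, 104 and 67.3 CPM to 0.424, 0.166 and 0.687 CPM and from 231, 96.1 and 70.4 CPM to 1.69, 0.499 and 0 CPM. Krt35, a keratin of the hair itself, had 950 counts in skin and 4 in tumors, a ratio of 203 (79 to 746). Tchh, which codes for trichohyalin, fell by 3.40 (SE 0.46, adjusted p = 0.00136). Skin replicate 1 held the most of each of the 4 keratins and all skin libraries exceeded all tumors, which for Krt28 and Krt35 was a condition of their choice.

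Mock skin differed within its own group in these genes. On the scale of the whole series, Krt25 stood at 623 CPM in 1 mock ΔK14 library and at 1.76 CPM in the other, beside 128 to 377 CPM in treated skin and 0.223 to 0.908 CPM in tumors. Shh stood at 19.5 and 0 CPM in the mock libraries and Lef1 at 189 and 3.52 CPM, and in the tumors they reached at most 0.182 and 1.51 CPM. Other genes stayed far above the tumors in that second mock library. Lhx2 was at 13 CPM there and at 0.363 to 0.446 CPM in tumors, and Gli1 at 10.6 CPM beside 0.189 to 0.908 CPM. Axin2 was at 55.6 CPM beside 5.35 to 10.2 CPM, Lgr5 at 18.3 CPM beside 3.02 to 4.72 CPM and Tnfrsf19 at 312 CPM beside 0.891 to 3.09 CPM. Hair follicles pass through phases of growth and rest in which many of their genes switch on and off. The part of the hair cycle in the difference between tumors and treated skin was not tested.

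Regulators of the follicle gave 3 rises and 19 falls in 43 tested, with a median of -1.12. Lhx2, a transcription factor of follicle stem cells, stood at 54.5, 39.7 and 35.6 CPM in skin and at 0.424, 0.333 and 0.343 CPM in tumors, from 828 and 6 counts, a ratio of 118 (53.9 to 322). Lgr5, a receptor that marks follicle stem cells, fell from 48, 98.7 and 33.5 CPM to 2.97, 4.32 and 2.75 CPM. Sox5 fell from 31.1, 31.8 and 26.6 CPM to 1.69, 2.16 and 1.72 CPM. Cd34, another marker of follicle stem cells that endothelium also expresses, was among the 3 genes that rose, from 16.4, 26.9 and 4.97 CPM to 129, 52.7 and 210 CPM. Sox9, a factor of the follicle's outer root sheath, stood at 76.5, 161 and 170 CPM in skin and 241, 255 and 283 CPM in tumors and missed the fold threshold (0.94, SE 0.29, adjusted p = 0.0324).

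RNA of the Hedgehog ligand and of its targets fell. The Hedgehog list gave 0 rises and 6 falls in 11 tested genes, with a median of -1.36. Shh, the ligand, had 314 counts in skin and 1 in tumors, a ratio of 268 (47.8 to 10630). The target and transcription factor gene Gli1 fell from 47.3, 24.1 and 14.4 CPM to 0.847, 0.832 and 0.172 CPM. Ptch1, the receptor and also a target, fell from 158, 89.8 and 103 CPM to 25.6, 21.6 and 21.6 CPM. The Wnt pathway gave 3 rises and 17 falls in 39 tested genes, with a median of -1.08. Lef1, the transcription factor of hair-forming cells, fell from 161, 88.6 and 69.8 CPM to 0.212, 0.832 and 1.37 CPM, and the feedback gene Axin2 from 45.2, 34.5 and 31.8 CPM to 5.08, 9.31 and 7.9 CPM. Tnfrsf19, a Wnt-responsive receptor gene, fell from 78.8, 70.7 and 107 CPM to 0.847, 2.83 and 2.06 CPM. A pair of ligand genes went the other way, as Wnt10a rose by 1.57 (SE 0.27, adjusted p = 0.00334) and Wnt3a rose from 0, 0.938 and 1.76 CPM to 9.11, 15 and 10.8 CPM. Lef1 and some other genes stand in both the follicle and the Wnt list.

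Outside the lists, Bbox1, the last enzyme of carnitine synthesis, had 1047 counts in skin and 2 in tumors, a ratio of 447 (124 to 3698). Dmd, the dystrophin gene, fell from 149, 127 and 99.7 CPM to 2.33, 1.83 and 0.343 CPM. Rassf9, a gene of epidermal homeostasis, fell from 59.5, 47.6 and 68.3 CPM to 3.39, 4.49 and 2.57 CPM, and Srgap1 from 55.6, 63.8 and 41.9 CPM to 2.54, 3.49 and 1.54 CPM. Among the gains, Slpi, the secretory inhibitor of leukocyte proteases, rose from 5.45, 10.6 and 4.49 CPM to 256, 162 and 209 CPM. Tnfrsf23, a decoy receptor for TRAIL, rose from 1.06, 2.68 and 2.08 CPM to 44.9, 57 and 56.8 CPM, and Tspan12 from 1.06, 0.402 and 0.641 CPM to 32.6, 29.9 and 22.8 CPM. Prl2c3, a proliferin gene, had 1 count in skin and 362 in tumors, a ratio of 424 (75.6 to 16781), and belongs to a family of near-identical copies. All of these genes were picked among called genes whose groups of 3 did not overlap, so that separation is no result.

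The AP-1 motif was searched as TGANTCA, with any base at N, on both strands of the 300-base promoter windows. This also matches TGAATCA and TGATTCA, so the shares are not those of TGACTCA and TGAGTCA alone. It was present in 12.1% of 1069 genes that rose (95% exact interval 10.2% to 14.2%) and in 7.21% of 1193 genes that fell (5.81% to 8.83%). Among 9879 tested gene symbols with a window, 6.4% held it (5.92% to 6.9%). Among the 500 tested genes with the smallest p in each direction, 11.7% of 358 higher and 8.63% of 255 lower genes with a window held it. TGACNNNGC, the antioxidant response element, was present in 18.9%, 14.5% and 16.7% of higher, lower and all genes, and ACGTG or GCGTG, the core of hypoxia response elements, in 64.5%, 63% and 67.9%. CTTTGNT, the core bound by LEF1 and its relatives, was present in 15%, 18.8% and 16.5%, and in 24.3% of the lower genes with the smallest p. A match is a string of letters and no measure of a factor's binding, and windows of neighboring genes can overlap.

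In 3′ UTRs, the nonamer TTATTTATT on the transcript strand was present in 9.02% of 1363 genes that rose (7.56% to 10.7%), in 8.67% of 1430 genes that fell (7.26% to 10.3%) and in 8.35% of 12044 tested genes. The shorter TATTTAT, which the nonamer contains, was present in 34.6% (32.1% to 37.2%), 30.1% (27.8% to 32.6%) and 31% (30.2% to 31.9%). Among the 500 genes with the smallest p in each direction it was present in 37.7% of higher and 37.3% of lower genes. Median UTR lengths were 1215, 1298.5 and 1201 bases. The intervals of higher and lower genes overlapped for both motifs. For TATTTAT, the interval of higher genes lay above that of all tested genes. Zfp36 was deleted in both groups compared, and its part in these shares was not tested.

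The same stages in fl/fl mice with intact Zfp36 showed how far the changes were shared, after 1 library had been set apart. The library labelled fl/fl tumor replicate 1 correlated with the ΔK14 tumors at 0.946 to 0.962 across genes and with the other fl/fl tumors at 0.889 and 0.897, while those 2 correlated at 0.967. It had 2808550 counts, 19219 genes detected and 17.7% ribosomal RNA. Its Zfp36 level was within the range of fl/fl libraries. Genes are not independent replicates, and the correlations describe these libraries only. Results that rest on it are given with and without it, a choice made after seeing the data.

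In fl/fl mice 2764 of 15362 tested genes (18%) were called between tumors and treated skin. Among 14705 genes tested in both genotypes, 717 rose in both, 898 fell in both and 4 were called in opposite directions. The shared calls were 43.4% of the ΔK14 calls and 62.2% of the fl/fl calls among these genes. Without fl/fl tumor replicate 1, 4138 of 17061 genes (24.3%) were called in fl/fl mice. Among 15107 genes tested in both, 702 then rose in both, 975 fell in both and 80 were called in opposite directions, and the shared calls were 43.3% and 47.8% of each list. Ereg rose by 7.67 (SE 0.75) in ΔK14 and by 7.17 (SE 0.62) in fl/fl mice, Mmp13 by 9.26 (SE 0.78) and 7.71 (SE 0.66), and Cxcl1 by 4.99 (SE 0.51) and 4.24 (SE 0.25). Krt25 differed by -8.68 (SE 0.61) and -4.92 (SE 0.59), and Lhx2 by -6.82 (SE 0.34) and -5.02 (SE 0.64). Without fl/fl tumor replicate 1 the fl/fl differences of these 5 genes were 7.0, 7.15, 4.32, -4.79 and -4.69 in the same order. With all libraries the difference between genotypes was called for none of these 5 genes, and without fl/fl tumor replicate 1 it was called for Krt25 (-3.81, SE 1.01, adjusted p = 0.0389).

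**Figure D4:**
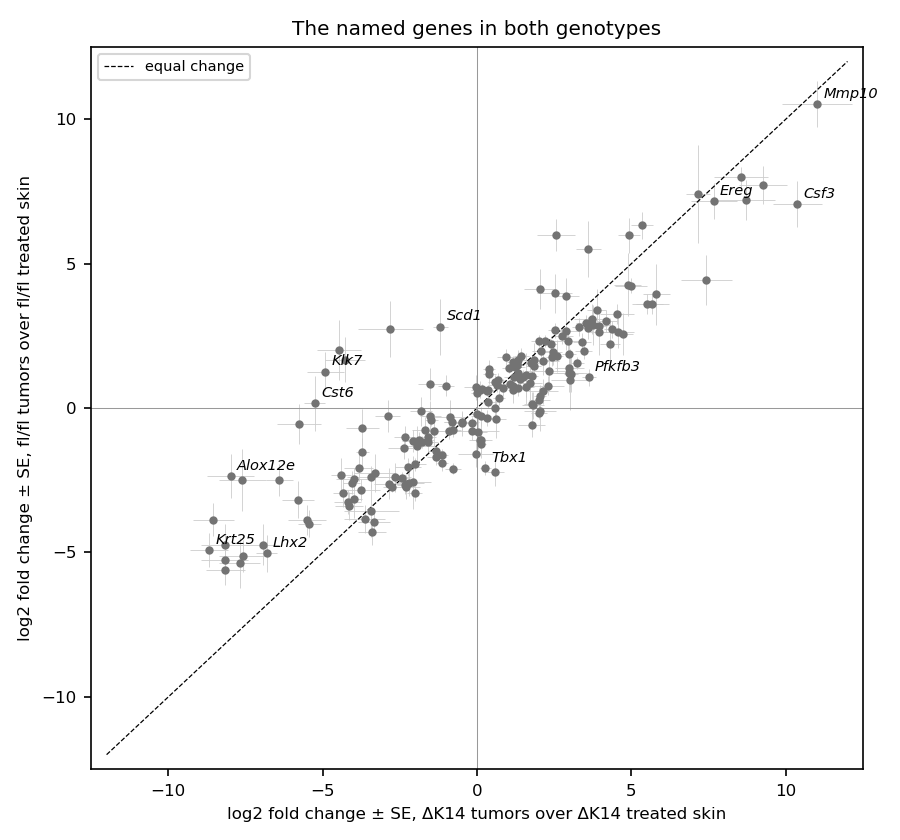
Tumor over treated skin in both genotypes for 195 named genes tested in each. The horizontal axis is the log2 fold change in ΔK14 mice, the vertical axis that in fl/fl mice, bars are standard errors of the fits and the dashed line marks equal change. Most points lie in the upper right and lower left, while Scd1, Klk7 and Cst6 lie left of 0 and above the line.

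A test of the difference itself, the skin-to-tumor change in ΔK14 minus that in fl/fl mice, called 2 of 17017 genes (0.0118%). Pfkfb3 rose by 3.62 (SE 0.22) in ΔK14 and by 1.06 (SE 0.29) in fl/fl mice, a difference of 2.59 (SE 0.35, adjusted p = 0.0476). Without fl/fl tumor replicate 1 its fl/fl difference was 0.73 (SE 0.19, adjusted p = 0.0183), under the 2-fold threshold and so not called. Tbx1, a transcription factor of follicle stem cells, stood at 24.7, 33.3 and 29.6 CPM in ΔK14 skin and 35.9, 33.5 and 38.3 CPM in ΔK14 tumors on the scale of that fit. In fl/fl mice it fell from 45.5, 48.9 and 46.6 CPM to 8.34, 13.4 and 11 CPM, and the difference was 2.36 (SE 0.28, adjusted p = 0.0217). The change of Tbx1 in ΔK14 mice alone was not called (0.27, SE 0.19, adjusted p = 0.292).

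Without fl/fl tumor replicate 1, which leaves 2 fl/fl tumors, the same test called 1352 genes, 626 with a higher and 726 with a lower change in ΔK14. Cst6 differed by -5.95 (SE 0.52, adjusted p = 0.000324) without that library and by -5.40 (SE 1.19, adjusted p = 0.193) with it. On the scale of the whole series its level was 208 and 228 CPM in fl/fl tumors 2 and 3, 4.29 CPM in fl/fl tumor 1 and 4.23 to 5.81 CPM in ΔK14 tumors. Klk7 differed by -6.59 (SE 0.80, adjusted p = 0.00100) and -6.14 (SE 1.01, adjusted p = 0.0886) without and with it. Scd1, the stearoyl-CoA desaturase gene of sebaceous glands, fell by 1.19 (SE 0.25) in ΔK14 mice (not called without skin replicate 2 or tumor replicate 2), was at 3298 and 5898 CPM in fl/fl tumors 2 and 3 and at 186 CPM in fl/fl tumor 1, and differed by -4.54 (SE 0.47, adjusted p = 0.000459) and -4.0 (SE 1.07, adjusted p = 0.207).

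Ptgs2 stood at 182 and 87.5 CPM in fl/fl tumors 2 and 3, at 1687 CPM in fl/fl tumor 1 and at 1744, 3598 and 3969 CPM in ΔK14 tumors. Its difference between genotypes was 4.23 (SE 0.57, adjusted p = 0.00160) without that library and 1.90 (SE 1.13, adjusted p = 0.494) with it. Areg differed by 2.39 (SE 0.54, adjusted p = 0.0210) and 1.93 (SE 0.58, adjusted p = 0.224). Ereg differed by 0.70 (SE 1.0, adjusted p = 0.716) and 0.53 (SE 0.97, adjusted p = 0.856) and was called in neither. Pfkfb3 and Tbx1 were called both ways, at 2.92 (SE 0.27, adjusted p = 0.000373) and 2.23 (SE 0.25, adjusted p = 0.00081) without the library.

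The genes Klk6, Alox8, Alox12, Aloxe3, Tgfa, Lama3, Lamb3, Slc16a3, Nrg4, Spry2, Dusp4, Dusp5, Plaur and Myl9 were named after their values were seen. With single libraries left out, the call of Nrg4 was lost without skin replicate 2 or 3 or tumor replicate 1 or 3 (-0.97 to -0.92), that of Myl9 without each library in turn except skin replicate 3 (-1.82 to -1.24), and those of the others called, apart from Alox8, were kept.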

How the data were processed

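The deposited table held raw counts per gene (52636 Ensembl IDs), made by the authors from Ovation SoLo RNA-Seq libraries sequenced on an Illumina HiSeq. The submitters' processing notes list Trimmomatic 0.36, STAR 2.5.3, HTSeq 0.9.1, DESeq2 and the mm10 build. Use of strand and removal of duplicates are not given in the sources used here, so antisense, overlapping and near-identical genes are uncertain, and intervals cover counting error only. Total counts are given per group above.

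In R 4.3.3, ΔK14 tumors and treated skin were fitted alone with edgeR 4.0.16 (limma 3.58.1): filterByExpr, TMM, the two-sided quasi-likelihood F test and Benjamini-Hochberg adjustment. Calls required an adjusted p under 0.05 with more than a 2-fold difference. SEs are of the fitted log2 fold change. The genotype test used 12 libraries of 4 groups. Groups came from the labels. Genes without a count in a group have a bound at 3 counts per library, and genes with at most 3 counts per library in a group a ratio of totals with a 95% exact conditional interval.

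Members and gene lists were chosen with earlier results of these data known. Named genes were Zfp36 and its paralogs, preset anchors of each list, and up to 5 per direction of the genotype test. Up to 2 per list and direction with the smallest p were added. So were the 10 per direction with the smallest p or the largest fold (mean of at least 20 CPM). All added genes were picked among called genes whose groups did not overlap. Not all are printed, and genes outside this rule are named at the end of the report.

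Motifs were searched in RefSeq promoter windows of 9892 tested gene IDs, which share 9879 symbols and were counted by symbol, and in 3′ UTRs of 12044. On simulated data with 200 changed genes, the main test over 15289 genes found 94% of 8-fold and 77% of 4-fold changes. It made 10 wrong calls among 182. The genotype test over 17017 genes, also with 200 changed, found 73% and 53%, with 10 wrong among 137. The main comparison itself had 3973 calls, so these rates do not cover errors of scaling when many genes change. Alternatives were DESeq2 1.42.0, RLE or no scaling, other filters, the exact test, glmTreat, the replicate block, all libraries in one fit and each library left out.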

Additional observations from a re-analysis of the deposited data

Results flagged for a closer look

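For 2 genes the change from treated skin to tumor differed between ΔK14 and fl/fl mice in the test of the difference itself (edgeR's quasi-likelihood test with Benjamini-Hochberg adjustment). Tbx1 differed by 2.36 (SE 0.28, adjusted p = 0.0217). Its 3 fl/fl tumors, at 8.34, 13.4 and 11 CPM, lay below all other libraries of the test, which ranged from 24.7 CPM in ΔK14 skin to 48.9 CPM in fl/fl skin. Pfkfb3 differed by 2.59 (SE 0.35, adjusted p = 0.0476), with 171, 142 and 130 CPM in ΔK14 tumors, 43.2, 23.1 and 24 CPM in fl/fl tumors, 9.61, 12.4 and 13.3 CPM in ΔK14 skin and 13.1, 15.9 and 13.8 CPM in fl/fl skin. It was called higher in both genotypes, but in fl/fl mice not without fl/fl tumor replicate 1 (0.73, adjusted p = 0.0183). Leaving out 1 library at a time, both genes were called without fl/fl tumor replicate 1, Tbx1 alone without fl/fl tumor replicate 2 or ΔK14 tumor replicate 1, and neither without any of the other 9 libraries, while the differences stayed between 2.23 and 2.92.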

How the results depend on the processing

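The 3973 calls between ΔK14 tumors and treated skin numbered 3509 to 5509 with DESeq2, RLE scaling, no filter on low counts, a mean count of at least 10, edgeR's exact test, the replicate number as a block or a single fit of all libraries. Testing against a 2-fold change with glmTreat left 1572 calls, 686 higher and 886 lower. Library totals with no TMM gave 930 higher and 4067 lower genes, and totals without ribosomal and mitochondrial RNA gave 3972 calls. Both of these were chosen after seeing the data. Leaving out 1 library gave 2823 to 4773 calls, with 1269 to 1984 higher and 1554 to 2789 lower, the lowest without tumor replicate 3 and the highest without skin replicate 3. No called gene changed sign under any of these, and no list with a median of at least 0.5 in size changed sign. Of 170 named genes called, 17 lost their call without tumor replicate 3, 12 without skin replicate 2, 11 without tumor replicate 2, at most 4 without each other library, 15 without TMM, 19 in the fit of all libraries and 48 with glmTreat. Same-numbered skin and tumor libraries correlated at 0.11, 0.21 and -0.05 in their deviations from group means, and different-numbered ones at -0.18 to 0.04. With 3 libraries per group these values cannot decide whether the numbers mark pairs. The numbers were not taken as pairs, and the replicate block gave 3879 calls, 1639 higher and 2240 lower.

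The 2 calls of the difference between genotypes became 211 (94 higher and 117 lower) with DESeq2, 1003 (437 and 566) with no filter on low counts, 5 (all higher) without TMM, 1 (higher) with RLE scaling, with a mean count of at least 10 and with the replicate block, and 0 in the fit of all libraries. Leaving out 1 library gave 0 to 1352 calls, 0 to 626 higher and 0 to 726 lower, with 1352 without fl/fl tumor replicate 1, 6 without ΔK14 tumor replicate 1, 1 without fl/fl tumor replicate 2 and 0 otherwise. At an unadjusted p under 0.05 the test with all libraries held 2243 genes. The cause of these differences was not tested. Depth limits genes under a few counts per library, whose ratios have the wide intervals given.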

Other observations

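Genes of protein folding in the endoplasmic reticulum gave 9 rises and 0 falls in 25 tested, with a median of 0.92, but 1 rise without TMM scaling. P4hb and Pdia3, which code for protein disulfide isomerases, rose by 1.34 (SE 0.17, adjusted p = 0.00102, edgeR's quasi-likelihood test with Benjamini-Hochberg adjustment) and 1.38 (SE 0.17, adjusted p = 0.00103), and Hspa5, the chaperone BiP, from 464, 405 and 389 CPM in skin to 867, 982 and 1264 CPM in tumors. Ddit3, the stress factor CHOP, stood at 25.3, 25.3 and 15.2 CPM in skin and at 10.6, 14.3 and 12.4 CPM in tumors and missed the fold threshold. Amino acid transport and serine synthesis gave 6 rises and 3 falls in 25 tested, with Slc7a1, an arginine transporter, higher by 1.17 (SE 0.16, adjusted p = 0.00156) and Slc7a2, another one, lower at 2.33, 0.665 and 1.03 CPM against 8.97, 31.8 and 21 CPM. Without TMM scaling 1 rise and 6 falls were called in that list.

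Lipid genes moved little as groups. Sebaceous gland and fatty acid genes gave 4 rises and 4 falls in 33 tested, with a median of -0.35, and cholesterol synthesis gave 1 rise and 2 falls in 23. Acacb, an acetyl-CoA carboxylase of mitochondria, fell from 4.57, 13.4 and 10.9 CPM to 0, 0.333 and 0.858 CPM. Pparg, the sebocyte transcription factor, ranged from 0.879 to 9.92 CPM in skin and from 0 to 2.12 CPM in tumors, overlapped and was not called. Fasn, the fatty acid synthase gene, was not called (0.40, SE 0.20, adjusted p = 0.151). Notch genes gave 1 rise and 2 falls in 15 tested, and Notch1 stood at 672, 466 and 403 CPM in skin and 471, 495 and 689 CPM in tumors. Clock genes gave 1 rise and 2 falls in 19 tested, with Nr1d1 higher by 1.78 (SE 0.26, adjusted p = 0.00171) and Per2 and Cry2 lower by more than the spread between libraries (-1.70, SE 0.40 and -2.02, SE 0.25). Of 4 tested genes of the aryl hydrocarbon receptor system, Tiparp rose from 151, 158 and 219 CPM to 511, 774 and 848 CPM and Cyp1b1, which activates DMBA, fell from 20.9, 41 and 18.9 CPM to 1.91, 6.65 and 2.4 CPM.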
